A study of Mus musculus with 46 samples.

Results

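Gonads of XY mouse embryos homozygous for a 1 bp insertion in Enh13, a remote enhancer of Sox9, were set against gonads of XY embryos heterozygous for the same insertion. The homozygous group (labelled Enh13-1bp-ins-hom) held 5 libraries and the heterozygous group (Enh13-1bp-ins-het) held 3, so that 8 of the 46 libraries of the series entered the comparison. All came from pairs of whole E12.5 gonads (embryonic stage in days), labelled male, and both groups carry the insertion, on both alleles in homozygotes and on 1 in heterozygotes. Heterozygotes are therefore not an untreated control, and the 3 XY wild-type libraries are given for orientation. Comparisons further used 5 homozygous and 3 heterozygous XX libraries with the insertion, and 5 homozygous and 3 heterozygous XY libraries with a 3 bp deletion in Enh13. Strain, littermates and culture or dissection days were not given in the sources used here. Each library was made from poly(A) RNA, and members were chosen by their titles alone.

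In the mouse, the bipotential gonad becomes a testis when supporting cells turn on Sry and then Sox9, a transcription factor that directs their development into Sertoli cells. Sertoli cells assemble cords around the germ cells and secrete Amh, which removes the female ducts, and Dhh, the Hedgehog ligand received by interstitial cells. Enh13 lies far upstream of Sox9 and is known for its part in raising Sox9 in the early testis. Cords are enclosed by a basement membrane of laminins, type IV collagens, nidogens and perlecan.

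The 8 libraries held 30291798 to 43412994 estimated read counts each, within the range of 29909111 to 46150400 over all 46 libraries. The summed level of 5 Y-linked genes was 161 to 185 CPM in homozygotes and 174 to 201 CPM in heterozygotes, and Xist was at or below 0.144 CPM in both groups, so every library matched its labelled sex. CPM, a share of the library's counts, is scaled by the trimmed mean of M values over all 46 libraries. No pair of libraries within a group agreed within sampling noise. Nothing in the labels says that replicates came from separate litters, so p-values measure the spread between these libraries. Testis markers were high in both groups and the ovary-side factor Foxl2 was low, at 0.358 to 1.80 CPM in homozygotes and 0.58 to 1.1 CPM in heterozygotes, against 54.9 CPM in XX heterozygotes. Markers of adjacent organs were present at low summed levels. The adrenal and chromaffin list summed to 4.33 to 9.85 CPM in homozygotes and 5.06 to 6.68 CPM in heterozygotes, and the mesonephros list to 87.7 to 105 CPM in homozygotes and 81.2 to 99.6 CPM in heterozygotes.

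Across the transcriptome, homozygotes differed from heterozygotes in many genes by small amounts, and the direction followed gene length. Of 15596 genes tested, 773 were higher and 1185 were lower in homozygotes, at an adjusted p under 0.05 in edgeR's quasi-likelihood test with Benjamini-Hochberg adjustment over all genes. A gene past that threshold is named as called below. The calls made up 12.6% of the genes tested, 4.96% higher and 7.6% lower, and 98.6% of them changed by less than 2-fold. In 1855 of the 1958 called genes the groups did not overlap, so a lack of overlap adds little to a call. Long genes were lower and short genes were higher: among the shortest 1560 genes, the median log2 fold change was 0.22, with 302 genes called higher and 4 lower. In the longest 1560 the median log2 fold change was -0.26, with 1 gene called higher and 582 lower. The Spearman correlation between fold change and length across 15595 genes was -0.542, a description over genes that share the same 8 libraries.

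Length here is relative: a gene's estimated count divided by its deposited TPM (a length-scaled abundance) returns the length that entered TPM. It correlated across genes with the annotated length of the longest transcript (rho 0.855), and the fold changes followed the annotated length as well (rho -0.52). The GC content of transcripts followed the fold changes less closely (rho 0.115).

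The trend was a property of whole libraries. The slope of log2 CPM on length, per doubling of length and relative to the heterozygote mean, was -0.147, -0.132, -0.079, -0.146 and -0.139 in homozygous replicates 1 to 5, against -0.0356, -0.0047 and 0.0403 in heterozygous replicates 1 to 3. All homozygous libraries lay below all heterozygous ones, and replicate 3 stood nearest to the heterozygotes. The mean slope was -0.129 ± 0.0284 in homozygotes (SD, n = 5) and 0 ± 0.0382 in heterozygotes (SD, n = 3). The exact two-sided permutation test over all 56 assignments of the group labels gave p = 0.0179, which is the smallest p these groups can give. On the same scale, libraries of other groups covered a wider range: XX homozygotes for the insertion lay between -0.16 and -0.0842, XY homozygotes for the 3 bp deletion between -0.155 and 0.0177, and XY wild-type libraries between -0.104 and 0.14. Wild-type replicates 1 to 3 had slopes of -0.041, -0.104 and 0.14, so the width of their range rests largely on replicate 3. In these 8 libraries the slope and the genotype cannot be told apart.

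**Figure D1:**
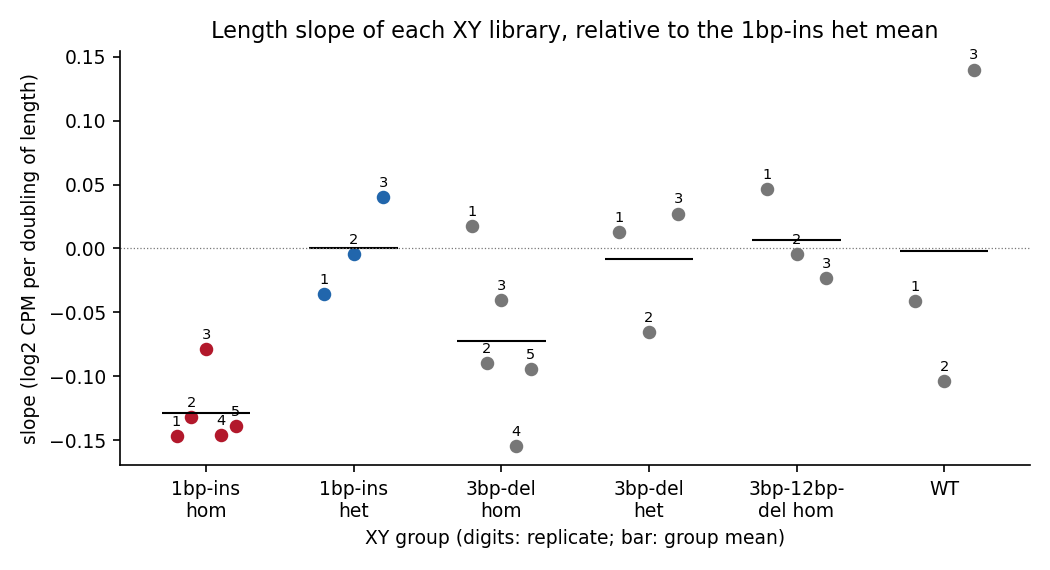
Slope of log2 CPM on gene length (log2 CPM per doubling of length, vertical axis) for each XY library, by group; points are libraries, digits are replicate numbers and bars are group means. The 5 insertion homozygotes lie between -0.147 and -0.079, below the 3 heterozygotes, and the 3 wild-type libraries spread from -0.104 to 0.14.

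With the trend removed from each library, 107 of 15595 genes were called, 35 higher and 72 lower in homozygotes, or 0.686% of the genes tested. Of these, 92 were also called with the trend kept, all in the same direction, 22 higher and 70 lower. The other 15 were called only after removal, 13 higher and 2 lower. This second count rests on few libraries: it was 43, 0 and 2 without heterozygous replicates 1, 2 and 3, and 12, 36, 227, 68 and 0 without homozygous replicates 1 to 5. With the annotated transcript length in place of the relative length, 378 genes were called, 202 higher and 176 lower. With the trend kept, the count of 1958 was 701 and 307 without heterozygous replicates 2 and 3, and 1180 and 1227 without homozygous replicates 1 and 5. Counts of called genes in the lists below are therefore given with the trend kept and with it removed. The lists were drawn up with earlier results of these data known. Their counts describe the members and test nothing about a class of genes. Over all genes tested, calls made up 4.96% higher and 7.6% lower with the trend kept, and 0.224% and 0.462% with it removed.

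**Figure D2:**
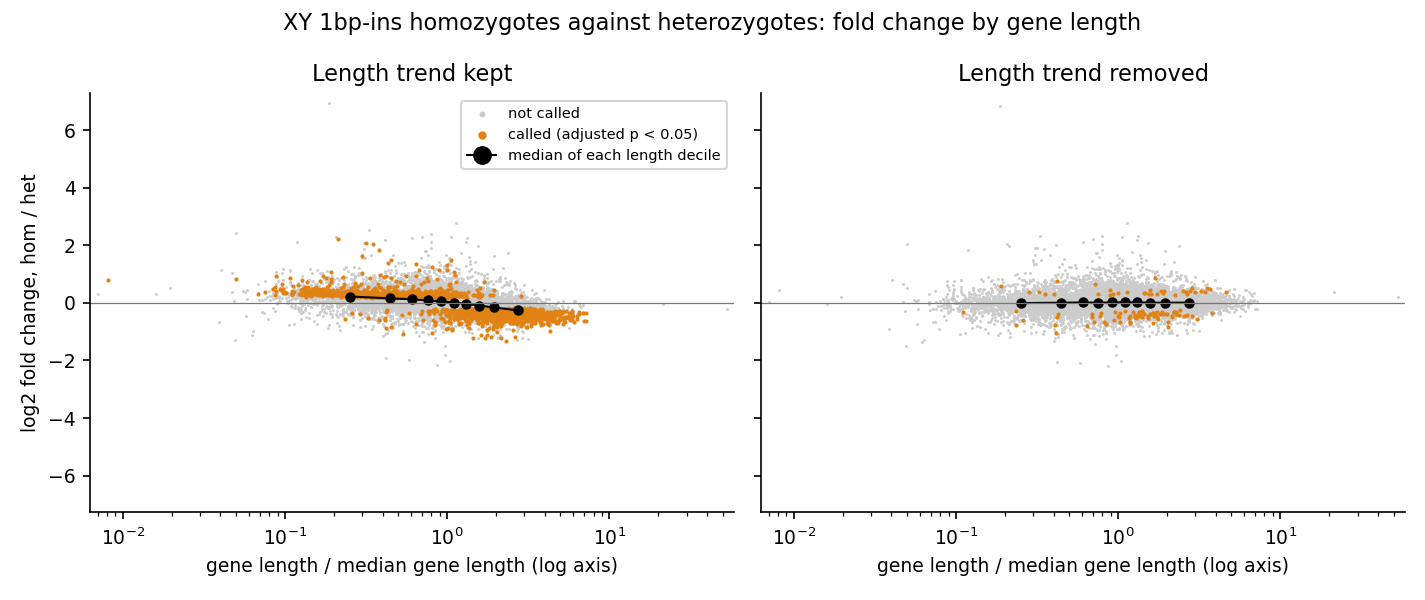
Log2 fold change of homozygotes over heterozygotes (vertical axis) against gene length relative to the median gene (log axis), with the length trend kept on the left and removed on the right; grey points are genes not called, orange points are called genes and black points are medians of 10 length classes. With the trend kept, the medians run from 0.22 in the shortest class to -0.26 in the longest, and with it removed they lie near 0.

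Sox9 (chromosome 11, 112782224 to 112787760, mm10) was not called. Its level was 285, 236, 204, 214 and 227 CPM in homozygous replicates 1 to 5, against 210, 227 and 223 CPM in heterozygous replicates 1 to 3. The groups overlapped, and homozygous replicate 1 was the highest. The mean was 233 ± 31.4 CPM in homozygotes (SD, n = 5) and 220 ± 8.99 CPM in heterozygotes (SD, n = 3), a log2 fold change of 0.10 ± 0.09 (SE; adjusted p = 0.519 by edgeR). Removal of the trend gave a log2 fold change of 0.22 ± 0.10 (adjusted p = 0.277 by edgeR). Both groups lay above the 84.0 to 163 CPM of the 3 XY wild-type libraries. The heterozygotes differed from wild type by 0.68 ± 0.23 on the log2 scale, which did not pass the test (adjusted p = 0.766 by edgeR).

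Of 20 Sertoli genes, 3 were lower in homozygotes, none was higher and 17 were not called, beside 7.6% lower and 4.96% higher over all genes tested. The list median log2 fold change was -0.11, beside 0.02 over all genes, and -0.14 with the trend removed. In whole gonads, fewer cells of a type and less RNA per cell cannot be told apart. Inhbb, the activin and inhibin beta B subunit, was at 251, 277, 240, 202 and 236 CPM in homozygous replicates 1 to 5, against 307, 343 and 331 CPM in heterozygotes. Gdnf, a growth factor secreted by Sertoli cells, was at 35.2, 35.5, 34.1, 26.2 and 34.9 CPM in homozygotes, against 43.8, 41.9 and 45.0 CPM in heterozygotes. Cyp26b1, the enzyme that breaks down retinoic acid in the fetal testis, was at 218, 233, 195, 157 and 212 CPM in homozygotes, against 256, 307 and 279 CPM in heterozygotes. For these 3 genes every homozygous library lay below every heterozygous one, and homozygous replicate 4 was the lowest. The log2 fold changes were -0.42 ± 0.08 for Inhbb (adjusted p = 0.0115), -0.38 ± 0.09 for Gdnf (adjusted p = 0.0254) and -0.45 ± 0.11 for Cyp26b1 (adjusted p = 0.026; SE, edgeR). All 3 genes were longer than the median gene, by 1.51 to 1.79 times, and with the trend removed none was called: their log2 fold changes were -0.29, -0.29 and -0.32, with adjusted p-values of 0.0918, 0.125 and 0.17. The 3 calls also ended without heterozygous replicate 2 or 3, and that of Gdnf without replicate 1.

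Amh, Dhh and Gata4 were not called in either fit. Amh was at 721, 842, 1000, 480 and 685 CPM in homozygotes, against 953, 517 and 933 CPM in heterozygotes. Its groups overlapped, and homozygous replicate 4 and heterozygous replicate 2 were both low (log2 fold change -0.08 ± 0.28, adjusted p = 0.875 by edgeR, and -0.18 with the trend removed). Dhh was at 218 ± 33.1 CPM in homozygotes (SD, n = 5) and 246 ± 14.5 CPM in heterozygotes (SD, n = 3), with a log2 fold change of -0.16 ± 0.12 (adjusted p = 0.403 by edgeR), and -0.04 with the trend removed. Gata4, a transcription factor of the early gonad, had a log2 fold change of -0.19 ± 0.09 (adjusted p = 0.194 by edgeR), and -0.19 with the trend removed.

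None of 15 pregranulosa genes, markers of the supporting cells of the ovary, was called in either direction in either fit. Their median log2 fold change was 0.22, and 0.16 with the trend removed. Wnt4, which promotes ovarian development, was at 89.2, 66.2, 28, 78.9 and 41.1 CPM in homozygotes, against 38.7, 63.2 and 52.8 CPM in heterozygotes. The homozygous libraries spread on both sides of the heterozygotes. Irx3, an Iroquois factor of the fetal ovary, was at 5.82 ± 1.55 CPM in homozygotes and 4.41 ± 0.521 CPM in heterozygotes, against 68.0 CPM in XX heterozygotes. The mean log2 level of the Sertoli list minus that of the pregranulosa list was 2.694 ± 0.366 in homozygotes (SD, n = 5) and 2.952 ± 0.166 in heterozygotes (SD, n = 3), against 1.955 ± 0.87 in wild type (SD, n = 3). One wild-type library, replicate 3, had the lowest difference, 0.972.

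Among 3 genes that Hedgehog signalling induces, 1 was lower in homozygotes with the trend kept and none with it removed. Over all genes tested 7.6% were lower with the trend kept. Ptch1, the receptor and feedback inhibitor of the pathway, was at 207, 195, 231, 155 and 209 CPM in homozygotes, against 267, 328 and 307 CPM in heterozygotes (log2 fold change -0.57 ± 0.12, adjusted p = 0.0143 by edgeR). The groups did not overlap. Gli1, a transcription factor of the pathway, and Hhip, a ligand-binding inhibitor, were not called, with log2 fold changes of -0.28 ± 0.11 and -0.38 ± 0.43. Ptch1 was 2.99 times as long as the median gene, and its log2 fold change with the trend removed was -0.29 (adjusted p = 0.169 by edgeR). The call of Ptch1 ended without heterozygous replicate 2 or 3.

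Among 11 steroidogenic genes, 1 was higher and 1 was lower in homozygotes, and neither was called with the trend removed. Over all genes tested 4.96% were higher and 7.6% lower with the trend kept. Fdx1, the electron carrier of mitochondrial steroid enzymes and a short gene, was at 19.4 ± 1.29 CPM in homozygotes and 14.9 ± 1.04 CPM in heterozygotes (log2 fold change 0.40 ± 0.08, adjusted p = 0.0123 by edgeR). Scarb1, the receptor for high-density lipoprotein, was at 97.0 ± 8.02 CPM in homozygotes and 119 ± 5.39 CPM in heterozygotes (log2 fold change -0.28 ± 0.07, adjusted p = 0.0248 by edgeR). It lies near the median length, and its log2 fold change was -0.31 with the trend removed (adjusted p = 0.053 by edgeR). Hsd17b3, which in the fetal mouse testis completes testosterone synthesis in Sertoli cells, was at 16.6 ± 2.18 CPM in homozygotes and 16.9 ± 0.452 CPM in heterozygotes (log2 fold change -0.01 ± 0.11). The calls of Fdx1 and Scarb1 ended without heterozygous replicate 2 or 3, and that of Scarb1 also without homozygous replicate 5.

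**Figure D3:**
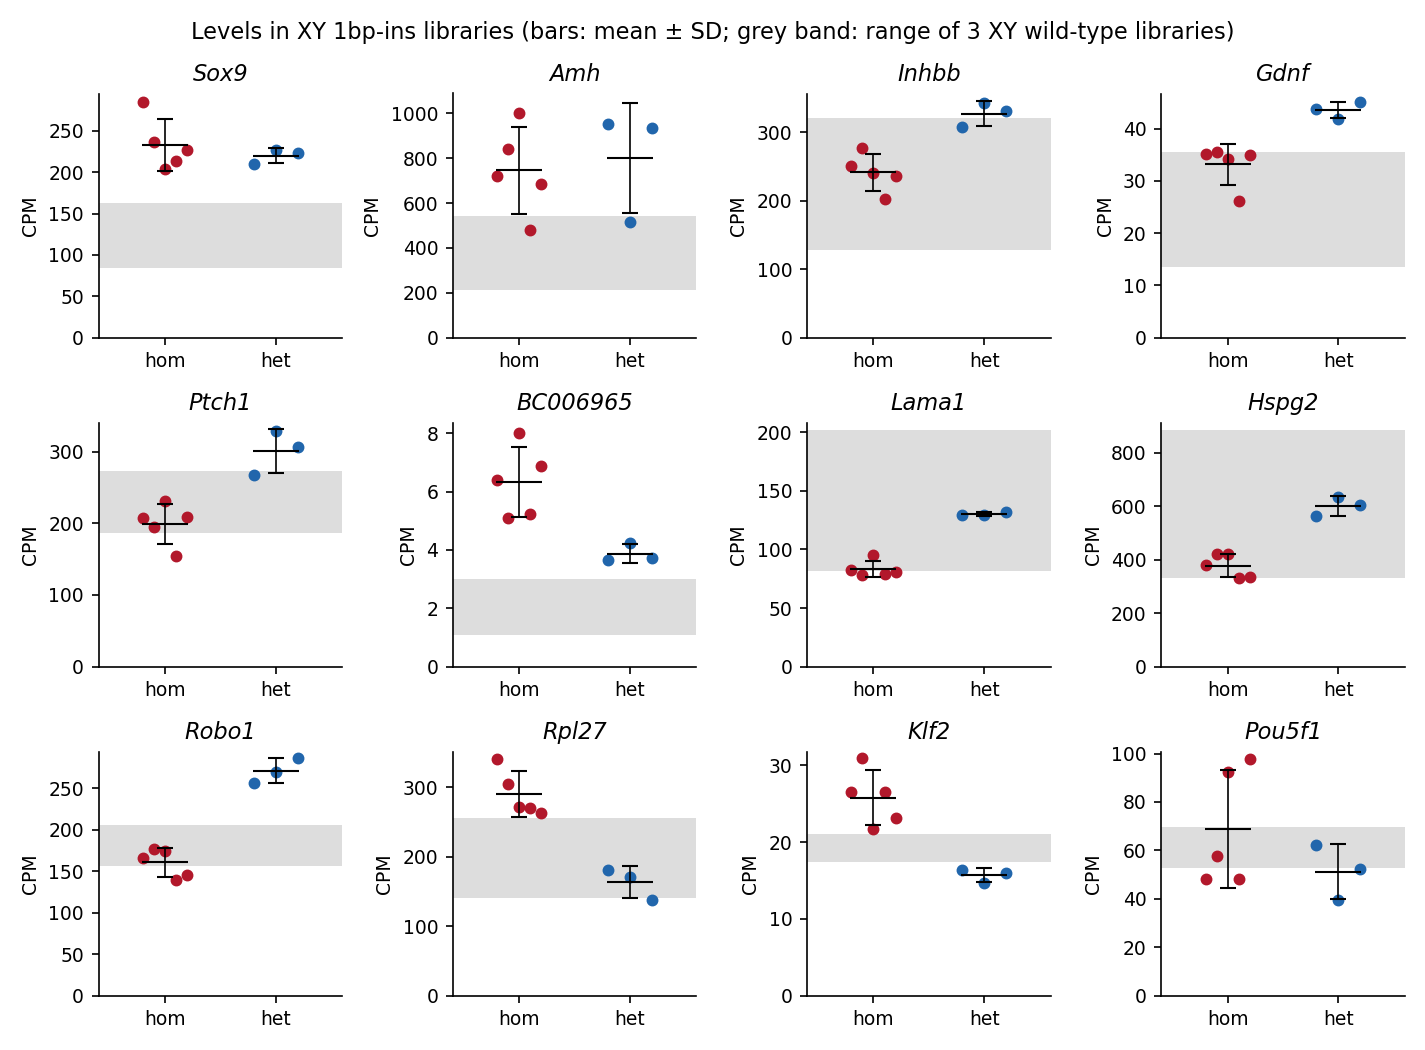
Levels of 12 genes (CPM, vertical axes starting at 0) in each homozygous library (left, red) and heterozygous library (right, blue); bars are means ± SD and the grey band is the range of the 3 XY wild-type libraries. Sox9, Amh and Pou5f1 overlap between the groups, while Lama1, Hspg2, Robo1, Rpl27 and Klf2 do not.

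Basement membrane genes, a list drawn up with earlier results of these data known, were lower in homozygotes almost throughout. Of 12 genes of the list, 11 were called lower and none higher, with a median log2 fold change of -0.49. Over all genes tested 7.6% were called lower, and among the longest 1560 genes 37.3% were. With the trend removed, 5 of the 12 were called, all lower, beside 0.462% of all genes, and the median was -0.30. Their median length was 2.11 times that of the median gene. Lama1, the alpha 1 laminin chain (chromosome 17, 67697259 to 67822647), was at 82.1, 78.6, 95.4, 79.1 and 80.6 CPM in homozygotes, against 129, 129 and 132 CPM in heterozygotes. Lamc1, the gamma 1 chain (chromosome 1, 153218922 to 153332786), was at 220, 235, 227, 200 and 208 CPM in homozygotes, against 305, 339 and 319 CPM in heterozygotes. Hspg2, which encodes perlecan (chromosome 4, 137468769 to 137570630), was at 381, 421, 422, 332 and 334 CPM in homozygotes, against 562, 636 and 603 CPM in heterozygotes. For these 3 genes the highest homozygous library lay clearly below the lowest heterozygous one.

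Their log2 fold changes were -0.63 ± 0.07 for Lama1 (adjusted p = 0.0027), -0.54 ± 0.06 for Lamc1 (adjusted p = 0.00298) and -0.65 ± 0.09 for Hspg2 (adjusted p = 0.00459; SE, edgeR). With the trend removed they were -0.41 ± 0.06, -0.39 ± 0.05 and -0.46 ± 0.07, with adjusted p-values of 0.0231, 0.0231 and 0.0328. Lamb1, the beta 1 chain, was also called in both fits, with a log2 fold change of -0.47 ± 0.05 and, after removal, -0.25 ± 0.04 (adjusted p = 0.0402 by edgeR). The fifth was Lama5, the alpha 5 chain, at -0.48 and, after removal, -0.37 (adjusted p = 0.0487 by edgeR). Nid2, a nidogen that links laminin to collagen networks, was the exception, at 202 ± 22.7 CPM in homozygotes and 182 ± 4.23 CPM in heterozygotes (log2 fold change 0.17 ± 0.08, adjusted p = 0.19 by edgeR). When 1 library at a time was left out with the trend removed, Lama1 and Hspg2 were called in 3 of 8 fits, Lamc1 in 4, Lamb1 in 2 and Lama5 in 1. The wild-type libraries spread widely, with Lama1 at 81.2 to 202 CPM and Hspg2 at 330 to 885 CPM. All heterozygous libraries lay inside these ranges, and so did all homozygous libraries for Hspg2. For Lama1, homozygous replicates 1 and 3 lay inside, and replicates 2, 4 and 5 lay just below, at 78.6 to 80.6 CPM.

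Fibrillar and other collagens gave 3 of 11 genes lower with the trend kept, beside 7.6% of all genes tested, and none with it removed. Col11a1, a chain of the minor fibrillar type XI collagen, was at 32.1 ± 1.32 CPM in homozygotes and 45.0 ± 6.58 CPM in heterozygotes (log2 fold change -0.47 ± 0.09, adjusted p = 0.00993 by edgeR), and -0.22 after removal. The call ended without heterozygous replicate 3. Col1a1, the main fibrillar collagen chain, spread from 388 to 1150 CPM over homozygotes and from 458 to 711 CPM over heterozygotes, and was not called.

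Stromal, vascular and epithelial lists held 1 or 2 calls each with the trend kept. In the interstitial stroma, 1 of 12 genes was higher and 1 lower, beside 4.96% higher and 7.6% lower over all genes. Pdgfra, the receptor for platelet-derived growth factor, was at 379 ± 42.2 CPM in homozygotes and 522 ± 25.3 CPM in heterozygotes (log2 fold change -0.44 ± 0.09, adjusted p = 0.0114 by edgeR). Tcf21, a stromal transcription factor, was at 234 ± 22.8 CPM in homozygotes and 195 ± 7.55 CPM in heterozygotes (log2 fold change 0.28 ± 0.08, adjusted p = 0.0354 by edgeR), with overlapping groups. Pdgfra was long and Tcf21 was short, and neither was called with the trend removed, at -0.20 and 0.13 on the log2 scale. The call of Pdgfra ended without heterozygous replicate 3, and that of Tcf21 in 6 of the 8 fits that left out a library, all but those without homozygous replicates 3 and 4.

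Of 14 endothelial genes, Efnb2, an ephrin of arteries, was lower with the trend kept, at 96.0 ± 6.58 CPM in homozygotes and 116 ± 5.27 CPM in heterozygotes (log2 fold change -0.25 ± 0.06, adjusted p = 0.024 by edgeR), and none was called with it removed. That call ended without heterozygous replicate 2 or 3 or homozygous replicate 5. Kdr, the main receptor for vascular endothelial growth factor, was at 122 ± 17.3 CPM in homozygotes and 153 ± 7.8 CPM in heterozygotes and did not pass (adjusted p = 0.0561 by edgeR).

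Of 4 surface epithelium genes, 1 was called higher in both fits. Over all genes tested, 4.96% were higher with the trend kept and 0.224% with it removed. A list of 4 genes is too small for its share to be read. The called gene was Upk3b, a uroplakin of the mesothelium. It was at 121, 127, 114, 115 and 117 CPM in homozygotes, against 106, 103 and 90.2 CPM in heterozygotes, and the groups did not overlap. Its log2 fold change was 0.27 ± 0.06 with the trend kept (adjusted p = 0.0218) and 0.34 ± 0.07 with it removed (adjusted p = 0.0474 by edgeR). It was called in 1 of 8 fits that removed the trend and left out a library, and with the trend kept the call ended without heterozygous replicate 2 or 3.

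The germ cell and macrophage lists had positive fold changes throughout, but few of these passed the test. All 13 general germ cell genes had positive fold changes, with a median of 0.52 on the log2 scale. Of them 1 was called higher, beside 4.96% of all genes tested. After removal of the trend the median was 0.545 and none was called. Their summed level was 316, 433, 641, 323 and 674 CPM in homozygous replicates 1 to 5, against 416, 261 and 343 CPM in heterozygotes. Homozygous replicates 3 and 5 lay above every heterozygote, replicate 2 lay just above the highest, and replicates 1 and 4 lay among them. Pou5f1, a pluripotency factor of early germ cells, was at 48.0, 57.6, 92.3, 48.1 and 97.9 CPM in homozygotes, against 62.1, 39.3 and 52.3 CPM in heterozygotes (log2 fold change 0.44 ± 0.32, adjusted p = 0.405 by edgeR). Utf1, another pluripotency gene, had the same 2 high libraries, 98.8 and 110 CPM (adjusted p = 0.139 by edgeR). Tfap2c, a factor of germ cell specification, was the called gene, at 15.1 ± 3.53 CPM in homozygotes and 9.25 ± 1.7 CPM in heterozygotes (log2 fold change 0.73 ± 0.20, adjusted p = 0.0389 by edgeR). Its groups did not overlap. Its log2 fold change after removal was 0.74 ± 0.20, about as large, and was not called (adjusted p = 0.103). The call also ended in 6 of the 8 fits that left out a library, all but those without homozygous replicates 1 and 4.

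None of 3 male germ cell genes and none of 10 female meiosis genes was called in either fit. Lefty2, a target of Nodal signalling in male germ cells, was at 42.0 ± 16.6 CPM in homozygotes and 29.8 ± 4.31 CPM in heterozygotes (adjusted p = 0.364 by edgeR).

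None of 12 macrophage genes was called in either fit, though all 12 fold changes were positive, with a median of 0.48 on the log2 scale and 0.49 with the trend removed. The list summed to 89.5, 70.1, 52.8, 115 and 52.8 CPM in homozygotes, against 58.5, 61.0 and 50.3 CPM in heterozygotes. Homozygous replicates 1, 2 and 4 lay above every heterozygote. Replicate 4 was the highest in this list and the lowest in the Sertoli list, which summed to 3190, 3350, 3310, 2320 and 2990 CPM in homozygotes, against 3420, 3150 and 3470 CPM in heterozygotes. None of 10 erythroid genes was called in either fit, and their sum was 5410 to 16500 CPM over heterozygotes, covering the 10800 to 15500 CPM of homozygotes.

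Genes for small abundant proteins were higher in homozygotes with the trend kept. Of 26 cytosolic ribosomal protein genes, 20 were higher and none was lower, with a median log2 fold change of 0.33. Over all genes tested 4.96% were higher, and among the shortest 1560 genes 19.4% were. After removal of the trend 1 gene of the list, Rpl27, was called and the median was 0.10. Outside the list, Rps20 and Rpl15, also cytosolic ribosomal proteins, were called higher in both fits. Rps20 was at 0.58 ± 0.09 and, after removal, 0.37 ± 0.07 (adjusted p = 0.0417), and Rpl15 at 0.48 ± 0.07 and 0.30 ± 0.05 (adjusted p = 0.0388; log2 fold change, edgeR). Each was called in 2 of 8 fits that removed the trend and left out a library. The median length of the list was 0.198 of that of the median gene. Rpl27, a protein of the large ribosomal subunit (chromosome 11, 101442298 to 101445529), was at 341, 305, 271, 270 and 263 CPM in homozygotes, against 181, 171 and 138 CPM in heterozygotes. The groups lay far apart, and the log2 fold change was 0.84 ± 0.10 (adjusted p = 0.00364), or 0.59 ± 0.08 with the trend removed (adjusted p = 0.0231 by edgeR). Rpl27 was called in 5 of 8 fits that removed the trend and left out a library. Rps18, of the small subunit, was at 935 ± 25.5 CPM in homozygotes and 694 ± 73.2 CPM in heterozygotes (log2 fold change 0.45 ± 0.07), and 0.17 with the trend removed (adjusted p = 0.127 by edgeR). Many ribosomal protein genes have near-identical pseudogenes, among which the estimated counts may be split.

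Of 23 oxidative phosphorylation genes, 13 were higher with the trend kept and none with it removed, where the median log2 fold change was 0.01. With the trend kept, 4.96% of all genes tested and 19.4% of the shortest 1560 were higher. Cox8a, a subunit of cytochrome c oxidase, was at 189 ± 14.1 CPM in homozygotes and 130 ± 8.9 CPM in heterozygotes (log2 fold change 0.56 ± 0.07, adjusted p = 0.00359), and 0.28 with the trend removed (adjusted p = 0.0505 by edgeR). Ndufa13, a subunit of complex I, had a log2 fold change of 0.39 ± 0.06, and 0.24 with the trend removed (adjusted p = 0.053 by edgeR).

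The reverse was seen for 19 genes of very large cytoskeletal and nuclear proteins, of which 18 were lower with the trend kept and 1 with it removed. Their median length was 3.40 times that of the median gene, so their direction with the trend kept cannot be told apart from the length trend. With the trend kept, 7.6% of all genes tested and 37.3% of the longest 1560 were lower. Utrn, the dystrophin relative utrophin, was at 92.4 ± 6.08 CPM in homozygotes and 138 ± 17.3 CPM in heterozygotes (log2 fold change -0.56 ± 0.08), and -0.25 with the trend removed (adjusted p = 0.0709 by edgeR). Spen, a transcriptional repressor that acts in X inactivation, had a log2 fold change of -0.71 ± 0.11, and -0.34 with the trend removed (adjusted p = 0.0625 by edgeR). Trrap, a scaffold of histone acetyltransferase complexes, held its call in both fits, at 265, 276, 317, 245 and 270 CPM in homozygotes, against 367, 410 and 423 CPM in heterozygotes. Its log2 fold change was -0.52 ± 0.08, and -0.41 ± 0.07 with the trend removed (adjusted p = 0.0333 by edgeR), and it was called in 3 of 8 fits that removed the trend and left out a library.

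**Figure D4:**
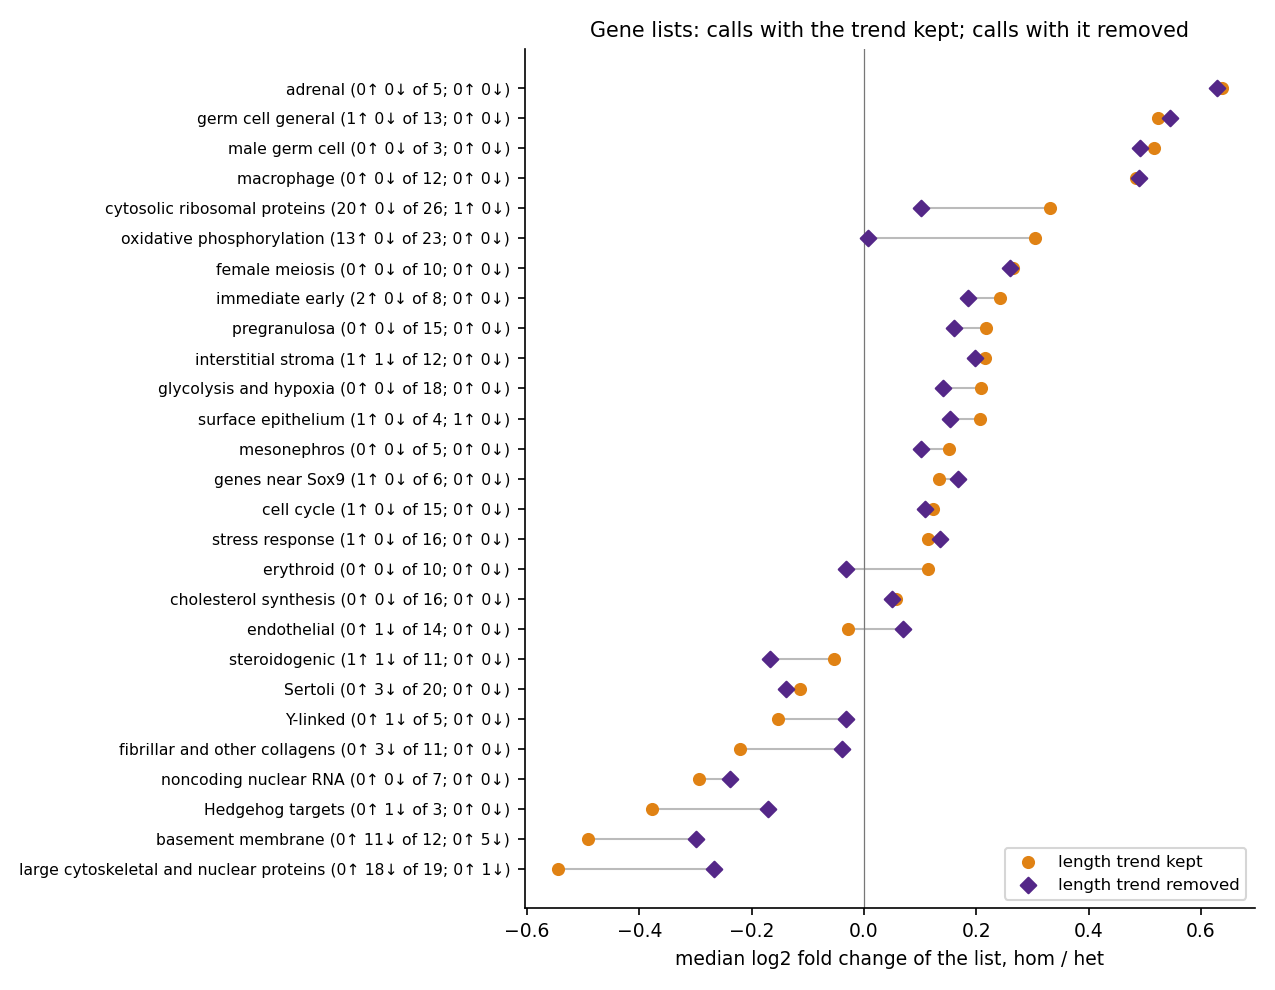
Median log2 fold change of each gene list, homozygotes over heterozygotes, with the length trend kept (circles) and removed (diamonds); labels give the genes called higher and lower of those tested with the trend kept, then with it removed. Ribosomal, oxidative phosphorylation, basement membrane and large-protein lists move toward 0 on removal, while germ cell and macrophage lists stay near 0.5 with at most 1 gene called.

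Among the genes called in both fits were several outside the structural lists. Klf2, an endothelial transcription factor that responds to blood flow, was at 26.6, 31.0, 21.7, 26.6 and 23.2 CPM in homozygotes, against 16.4, 14.7 and 16.0 CPM in heterozygotes. Its log2 fold change was 0.73 ± 0.11 and, after removal, 0.65 ± 0.10 (adjusted p = 0.0319 by edgeR). Plek, which encodes pleckstrin of platelets and leukocytes, was at 14.0, 12.8, 11.1, 16.8 and 10.9 CPM in homozygotes, against 8.33, 8.58 and 7.05 CPM in heterozygotes (log2 fold change 0.73 ± 0.15, and 0.85 ± 0.16 after removal, adjusted p = 0.0428 by edgeR). Neither gene's groups overlapped, which the rule that named them required. Nutf2, a carrier of nuclear import, had a log2 fold change of 0.57 ± 0.07, and 0.37 ± 0.05 after removal (adjusted p = 0.0231 by edgeR). The platelet chemokine genes Ppbp and Pf4 were higher with the trend kept, by 0.99 ± 0.24 and 0.93 ± 0.22 on the log2 scale, and by 0.81 ± 0.23 and 0.66 ± 0.18 after removal, where neither was called (adjusted p = 0.124 and 0.102 by edgeR). With the trend removed and 1 library left out, Klf2 was called in 3 of 8 fits, Plek in 2 and Nutf2 in 4. With the trend kept, the calls of Ppbp and Pf4 ended without heterozygous replicate 2 or 3, and that of Ppbp also without homozygous replicate 2; the call of Plek ended without heterozygous replicate 3.

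Among genes lower in both fits, Robo1, a receptor for Slit ligands (chromosome 16, 72308306 to 73046095), was at 166, 177, 175, 139 and 146 CPM in homozygotes, against 257, 270 and 287 CPM in heterozygotes. Its log2 fold change was -0.74 ± 0.08, and -0.47 ± 0.07 after removal (adjusted p = 0.0231 by edgeR), and it was called in 5 of 8 fits that removed the trend and left out a library. Hmcn1, the matrix protein hemicentin 1, was at 38.7, 37.8, 51.7, 29.9 and 32.4 CPM in homozygotes, against 66.0, 77.1 and 91.4 CPM in heterozygotes (log2 fold change -1.02 ± 0.18, and -0.85 ± 0.15 after removal, adjusted p = 0.0487 by edgeR). Both genes were lower in every homozygous library than in any heterozygous one, which the rule that named them required. Atp7a, a copper transporter, had a log2 fold change of -0.82 ± 0.11, and -0.65 ± 0.09 after removal (adjusted p = 0.0243 by edgeR). Pnmt, the enzyme that makes adrenaline, was low in every library, at 3.59 ± 0.789 CPM in homozygotes and 6.63 ± 1.31 CPM in heterozygotes. Its log2 fold change was -0.87 ± 0.19, and -1.03 ± 0.18 after removal (adjusted p = 0.0419 by edgeR). With the trend removed and 1 library left out, Pnmt was called in 2 of 8 fits, Hmcn1 in 1 and Atp7a in 3. With the trend kept, the call of Hmcn1 ended without heterozygous replicate 3 and that of Pnmt without heterozygous replicate 2 or 3.

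Some large decreases kept most of their size on removal of the trend but were no longer called. Adamtsl3, a matrix protein, was at 1.77 ± 0.721 CPM in homozygotes and 4.46 ± 0.801 CPM in heterozygotes (log2 fold change -1.31 ± 0.30, adjusted p = 0.0189 by edgeR), and -1.11 ± 0.28 after removal (adjusted p = 0.0904). Scube2, which takes part in release of Hedgehog ligands, was at 1.98 ± 0.456 CPM in homozygotes and 4.73 ± 1.45 CPM in heterozygotes (log2 fold change -1.24 ± 0.24, adjusted p = 0.011 by edgeR), and -1.16 ± 0.24 after removal (adjusted p = 0.0505). Fbln2, the matrix protein fibulin 2, was at 222 ± 45.2 CPM in homozygotes and 410 ± 40.6 CPM in heterozygotes (log2 fold change -0.87 ± 0.16, adjusted p = 0.0122 by edgeR), and -0.81 ± 0.15 after removal (adjusted p = 0.0505). The calls of Adamtsl3 and Scube2 ended without heterozygous replicate 2 or 3, and that of Fbln2 without replicate 3.

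Remaining lists held few calls, to be read beside 4.96% higher and 7.6% lower over all genes tested with the trend kept. Of 8 immediate early genes, 2 were higher with the trend kept, Jund at 284 ± 28.4 CPM in homozygotes and 224 ± 13.4 CPM in heterozygotes, and Jun at 100 ± 6.8 CPM in homozygotes and 85.4 ± 4.1 CPM in heterozygotes, both parts of the AP-1 factor. Of 15 cell cycle genes, only Pcna, the sliding clamp of DNA polymerase, was higher, at 337 ± 15.4 CPM in homozygotes and 289 ± 11.8 CPM in heterozygotes. Of 5 Y-linked genes, Ddx3y, an RNA helicase, was lower, at 64.5 ± 2.43 CPM in homozygotes and 76.7 ± 5.22 CPM in heterozygotes. Of 16 stress response genes, 1 was higher, the chaperone gene Hsp90aa1, at 0.30 on the log2 scale. No gene of these lists was called with the trend removed. The log2 fold changes of Jun and Hsp90aa1 were as large after removal, at 0.29 beside 0.24 with the trend kept and 0.31 beside 0.30. Those of Pcna and Ddx3y were smaller, at 0.12 beside 0.24 and -0.09 beside -0.23, as was that of Jund, at 0.26 beside 0.36. None of the 16 cholesterol synthesis, 18 glycolysis and hypoxia, 7 noncoding nuclear RNA, 5 mesonephros or 5 adrenal genes was called in either fit. The calls of Jund, Jun, Pcna and Ddx3y each ended without heterozygous replicate 2 or 3, those of Jun and Pcna also without heterozygous replicate 1. The call of Jun further ended without homozygous replicate 1 or 4, that of Pcna without 1 or 5 and that of Ddx3y without 2 or 5.

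Near Sox9, 1 of 6 tested genes was called higher with the trend kept, beside 4.96% of all genes tested, and none with it removed. BC006965, a noncoding transcript that runs away from Sox9 on the minus strand (chromosome 11, 112663927 to 112781976, GENCODE M21), was at 6.41, 5.11, 8.02, 5.23 and 6.89 CPM in homozygotes, against 3.66, 4.24 and 3.72 CPM in heterozygotes. The groups did not overlap, while Sox9 itself did. The log2 fold change was 0.73 ± 0.18 (adjusted p = 0.0227 by edgeR), and 0.60 ± 0.18 with the trend removed (adjusted p = 0.128). The call also ended without any 1 of the heterozygous replicates. Cog1, a Golgi complex subunit gene on the same chromosome, had a log2 fold change of 0.18 ± 0.07 (adjusted p = 0.103 by edgeR).

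Promoter windows of 2 genes described above are shown as RefSeq gives them on GRCm38.p6, from 250 bases before to 50 bases after the RefSeq start, to set the transcript next to Sox9 beside the gene with the largest increase in the cytosolic ribosomal protein list. Rpl27 lies at chr11:101441995-101442294 on the plus strand, a window that ends before the GENCODE start at 101442298. BC006965 lies at chr11:112711307-112711606 on the minus strand, a RefSeq start inside the GENCODE span. The window is therefore not that of the GENCODE start beside Sox9, at 112781976. Capitals mark a TATA box (TATAAA, or TTTATA on the other strand), and CCAAT was searched in the same way.
Rpl27: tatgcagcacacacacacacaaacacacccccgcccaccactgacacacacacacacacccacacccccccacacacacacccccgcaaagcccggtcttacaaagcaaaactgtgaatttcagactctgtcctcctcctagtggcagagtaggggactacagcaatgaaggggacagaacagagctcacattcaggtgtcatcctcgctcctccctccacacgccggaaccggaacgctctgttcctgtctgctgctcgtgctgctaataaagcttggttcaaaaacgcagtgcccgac
BC006965: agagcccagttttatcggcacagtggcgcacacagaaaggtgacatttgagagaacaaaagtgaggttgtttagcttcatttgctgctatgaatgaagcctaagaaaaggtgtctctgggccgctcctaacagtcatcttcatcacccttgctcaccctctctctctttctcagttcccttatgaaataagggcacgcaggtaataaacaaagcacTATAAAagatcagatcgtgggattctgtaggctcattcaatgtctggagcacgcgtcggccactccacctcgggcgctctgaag
The Rpl27 window (55.7% GC) held neither motif, and that of BC006965 (48.0% GC) held 1 TATA box. Of 32851 promoter windows of that length, 13.6% held TATAAA and 37.4% held CCAAT on either strand. Of the 18 matched ribosomal protein genes, 1 held TATAAA and 6 held CCAAT. A match of letters is a description only.

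The same contrast was large in XX gonads, where homozygous embryos carry testis genes at levels that XX heterozygotes lack. A test of the difference between the sexes took (XY homozygotes minus XY heterozygotes) minus (XX homozygotes minus XX heterozygotes). It called 347 genes with a positive difference (2.12%) and 630 with a negative one (3.85%), 5.97% of 16355. The sign compares fold changes, not levels in XY and XX. With the length trend removed, 342 positive and 798 negative differences were called among 16351 genes. Within XX, 17.3% of 15933 genes were called, 8.49% higher and 8.76% lower in homozygotes. For Sox9 the log2 fold change was 0.10 ± 0.09 in XY and 3.83 ± 0.18 in XX, where its level was 169 ± 29.9 CPM in homozygotes (SD, n = 5) and 12 ± 1.82 CPM in heterozygotes (SD, n = 3). The difference was -3.73 ± 0.20 (adjusted p = 8.42e-08 by edgeR). Of 20 Sertoli genes, 15 were called in the test of the difference, all with a negative difference. Of 15 pregranulosa genes 5 were called, all with a positive difference. Dhh differed by -5.65 ± 0.89 (adjusted p = 0.00269), Gdnf by -5.73 ± 0.88 (adjusted p = 0.00189) and Amh by -8.85 ± 1.84 (adjusted p = 0.0139; SE, edgeR). XX homozygotes spread widely for these genes, at 86.6 ± 77.9 CPM for Dhh, 14.4 ± 12.6 CPM for Gdnf and 226 ± 363 CPM for Amh (SD, n = 5). BC006965 rose in both sexes and by more in XX, with log2 fold changes of 0.73 in XY and 5.66 in XX and a difference of -4.94 ± 0.79 (adjusted p = 0.0018 by edgeR).

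A smaller group moved in opposite directions. Inhbb was lower in XY homozygotes and higher in XX homozygotes, with log2 fold changes of -0.42 and 0.90 (difference -1.32 ± 0.16, adjusted p = 0.000158 by edgeR). Cyp26b1 (-0.45 in XY, 2.28 in XX), Fbln2 (-0.87 in XY, 1.95 in XX) and Pnmt (-0.87 in XY, 2.99 in XX) had the same pattern, each called in XY, in XX and in the difference. Klf2 differed by 0.91 ± 0.14 (adjusted p = 0.00137 by edgeR), with 0.73 in XY and -0.17 in XX. Of 12 basement membrane genes, 2 were called in the test of the difference. Nid2 had a positive difference (0.60 ± 0.17, adjusted p = 0.0411 by edgeR), with log2 fold changes of 0.17 in XY and -0.43 in XX, neither called. Col18a1, the chain of type XVIII collagen, had a negative difference (-1.56 ± 0.40, adjusted p = 0.037 by edgeR). Its log2 fold changes were -0.54 in XY and 1.02 in XX, the XX value not called. Lama1 and Hspg2 were not called in that test: Lama1 had log2 fold changes of -0.63 in XY and -0.61 in XX, and Hspg2 -0.65 in XY and -0.36 in XX. The XX contrast had a length trend as well (rho -0.275). The count of 977 genes was 531 without XX heterozygous replicate 1, 512 and 583 without XY heterozygous replicates 2 and 3, and 651 and 1553 without XX homozygous replicates 3 and 4.

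**Figure D5:**
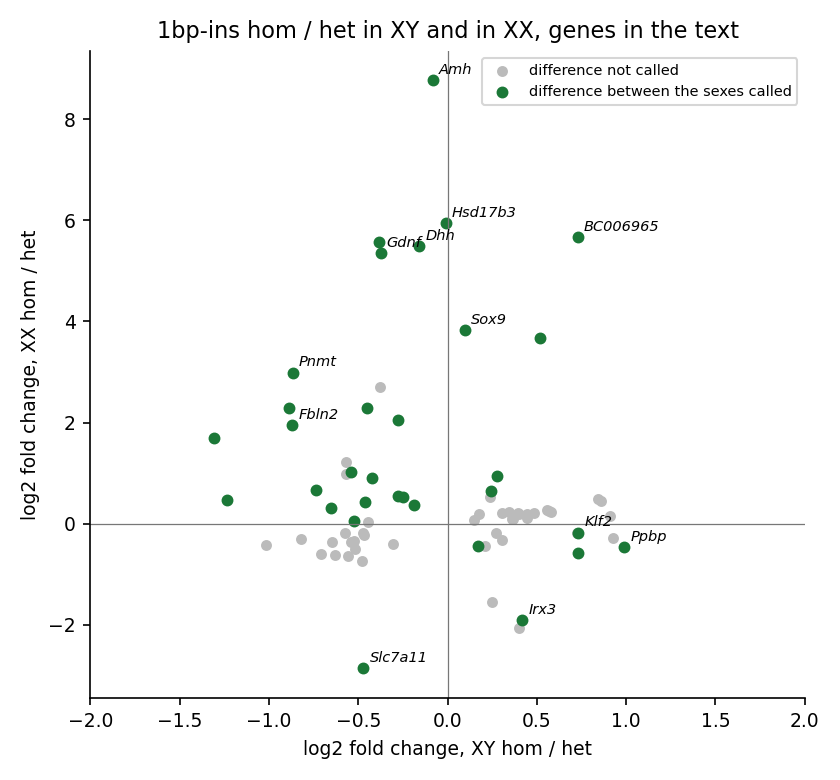
Log2 fold change of insertion homozygotes over heterozygotes in XY (horizontal axis) and in XX (vertical axis) for the genes given in the text; green points are genes whose difference between the sexes was called. Sox9, Dhh, Gdnf and Amh lie far above 0 in XX, while in XY their log2 fold changes run from -0.38 to 0.10.

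The insertion and the 3 bp deletion were not told apart in XY gonads. In a test of the difference between the 2 contrasts, 0 of 16058 genes were called by edgeR, with 1744 genes at an unadjusted p under 0.05, and DESeq2 called 29. XY homozygotes for the deletion against their heterozygotes gave 0 calls of 15665, with 2981 genes at an unadjusted p under 0.05, and a length trend of rho -0.285. Sox9 had log2 fold changes of 0.10 ± 0.09 for the insertion and 0.21 ± 0.12 for the deletion, and Lama1 of -0.63 ± 0.07 and -0.11 ± 0.29. Rpl27 rose by 0.84 ± 0.10 with the insertion and stood at 0.56 ± 0.16 with the deletion (difference 0.27 ± 0.20, adjusted p = 0.599 by edgeR).

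XY heterozygotes for the insertion against XY wild type gave 0 calls of 15336 by edgeR, with 943 genes at an unadjusted p under 0.05, and DESeq2 called 27. Without wild-type replicate 3, which has the steepest positive length slope, edgeR called 5. Of the 1958 genes called between homozygotes and heterozygotes, 900 (46%) had a heterozygote mean inside the wild-type range and a homozygote mean outside it. Another 367 (18.7%) had the homozygote mean inside and the heterozygote mean outside, 444 (22.7%) had both inside and 247 (12.6%) had both outside. These counts describe where the means lie, since the 3 wild-type libraries spread widely.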

How the data were processed

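RNA was measured by poly(A) sequencing of whole gonads, from 140 ng of total RNA per library, per the labels' protocols. The authors deposited a table of estimated counts per gene and a table of TPM for all 46 libraries; the build is mm10 per the submitters' processing notes, and no source used here names the aligner, the counter or its use of strand. Both tables hold 33331 gene rows, and 1 column in each that holds no library was not used.

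Estimated counts were rounded to whole numbers and tested with edgeR 4.0.16 in R 4.3.3 (quasi-likelihood F test, trimmed mean of M values, edgeR's default filter on low counts, robust dispersion). The Benjamini-Hochberg threshold was 0.05, over all genes tested. DESeq2 1.42.0 was an alternative. CPM values carry a normalization over all 46 libraries; log2 CPM uses a prior count of 2. Standard errors are the fold change divided by the root of the F statistic. Totals of 30291798 to 43412994 counts per library set the counting precision, which covers counting error only.

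Relative gene length is the median over libraries of counts divided by deposited TPM values, for counts of at least 10. The trend with length was removed by a loess offset per library (span 0.4). Gene spans and transcript lengths come from GENCODE M21 and 95.7% of the genes tested had an annotated length. The fits were also run on simulated counts that used the length slopes found here, with results not given.

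The 28 gene lists, with 332 of their 338 genes in the table, and the choice of members were made with earlier results of these data known. Named genes follow a rule. It takes Sox9, up to 4 called and 2 uncalled genes of each list, and the largest changes in each direction. Those of homozygotes against heterozygotes were picked among genes whose groups do not overlap. Up to 5 genes of each direction called in the difference between the sexes were added. The rule gave 134 distinct genes, of which the text gives part, picked with their values seen. Foxl2, Lama5 and Col18a1 were named as members of their lists, and the genes under other observations were chosen after their values were seen. The alternatives were other size factors, no filter on low counts, DESeq2, 1 fit over all 12 groups, a block on replicate number, removal of the length trend, and leaving out each library. Removal by annotated length, removal of a GC trend with the length trend, and removal of the trend with each library left out were added after the data were seen. Other comparisons of the series were left out, and a gene of the lists is not reported here.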

Additional observations from a re-analysis of the deposited data

Results flagged for a closer look

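Among the 76 genes given here and the length slope, 6 values in homozygotes stood apart from the other 4 libraries of the group by more than Dixon's 95% limit; chance gives about 1 in 20. Replicate 3 had Atp7a at 67.4 CPM (the others 47.6 to 52.6), Eif3f, a translation initiation factor subunit, at 357 CPM (the others 394 to 404), Lama1 at 95.4 CPM (the others 78.6 to 82.1) and a length slope of -0.079 (the others -0.147 to -0.132). These 4 values lay toward the heterozygotes. Replicate 4 had Gdnf at 26.2 CPM (the others 34.1 to 35.5) and Csf1r, a macrophage receptor, at 25.5 CPM (the others 11.4 to 15.4).

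The difference between the contrast of homozygotes with heterozygotes in XY and that in XX passed edgeR's test of the difference itself for 32 of these genes. Over all 16355 genes tested 5.97% passed. Some of the genes given here were named because they passed this test, so the count of 32 is no result about them. Given as XY minus XX on the log2 scale, it was -8.85 for Amh, -5.96 for Col9a3, -5.95 for Hsd17b3, -5.73 for Gdnf, -5.65 for Dhh, -4.94 for BC006965, -3.85 for Pnmt, -3.73 for Sox9, -3.17 for Gldn, -3.14 for Lefty2 and -3 for Adamtsl3. It was -2.82 for Fbln2, -2.73 for Cyp26b1, -2.32 for Gli1, -1.70 for Scube2, -1.56 for Col18a1, -1.41 for Robo1, -1.32 for Inhbb, -0.96 for Adamts9, -0.89 for Lama4, -0.83 for Scarb1, -0.78 for Efnb2, -0.66 for Tcf21, -0.58 for Itgav, -0.55 for Gata4 and -0.40 for Jun. On the other side it was 2.39 for Slc7a11, 2.33 for Irx3, 1.46 for Ppbp, 1.31 for Plek, 0.91 for Klf2 and 0.60 for Nid2. Slc7a11, a cystine transporter, was at 1.24 ± 0.115 CPM in XY homozygotes and 1.75 ± 0.19 CPM in XY heterozygotes, against 4.13 ± 2.65 CPM in XX homozygotes and 30.3 ± 5.73 CPM in XX heterozygotes. Gldn, the cell adhesion protein gliomedin, had log2 fold changes of -0.89 in XY and 2.29 in XX, both called, with an adjusted p of 6.85e-05 for the difference.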

How the results depend on the processing

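The length slope kept its sign under every alternative run, from -0.0958 with log2(TPM + 1) to -0.147 without heterozygous replicate 1. The 1958 calls between homozygotes and heterozygotes became 2885 with DESeq2, 1787 with no filter and 1484 in the fit over all 12 groups. They became 107 with the length trend removed, 130 with the GC trend removed too and 378 with annotated length. A replicate block gave 1239, and the block with the length trend removed gave 10. Leaving out a library gave 307 to 2569 with the trend kept and, with it removed, 43, 0 and 2 without heterozygous replicates 1 to 3 and 12, 36, 227, 68 and 0 without homozygous replicates 1 to 5. Whether replicate numbers pair these samples is not known. Deviations of same-numbered libraries correlated at -0.0521, 0.0985 and -0.0215, and those of other pairs at -0.0981 to 0.108. Such correlations cannot show whether libraries share a litter or batch. The interaction with sex (977 calls) gave 1140 with the length trend removed, 1634 with DESeq2 and 512 to 1553 without a library. The interaction with the 3 bp deletion (0 calls) gave 29 with DESeq2, 1 in the fit over all 12 groups and 1 with the replicate block. Heterozygotes against wild type (0 calls) gave 27 with DESeq2, 1 with no filter, 1 in the fit over all 12 groups, and 0 to 5 without a library. Other size factors kept each of these counts within 1.5 times. Directions changed only for genes that were not called. Amh was at 0.15 with the replicate block, 0.0496 with block and removal, and -0.3216 to 0.0465 without a library. Hsd17b3 was at 0.12 with the block and -0.0574 to 0.0507 without a library, and Csf1r at -0.0336 to 0.3043 without a library. With block and removal Dhh was at 0.0476 and Hhip at 0.0187. The cause of these changes was not tested. Depth limits weakly expressed genes such as Adamtsl3 and Pnmt.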

Other observations

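Other genes of the cell surface and matrix were among the 72 called lower in homozygotes with the length trend removed; they were chosen after their values were seen and no test of a group was made. Lama4, the alpha 4 laminin chain, had a log2 fold change of -0.46 and, after removal, -0.37 (adjusted p = 0.0439 by edgeR). The laminin-binding integrin chain gene Itga6 was at -0.52 and -0.48 (adjusted p = 0.0474), and Itgav, an integrin chain for matrix ligands with the RGD sequence, was at -0.53 and -0.39 (adjusted p = 0.0243). Robo2, a second Slit receptor, was at -0.57 and -0.53 (adjusted p = 0.0431). Adamts9, a protease of the matrix, was at -0.66 and -0.41 (adjusted p = 0.0243), and Pxdn, the peroxidase that crosslinks type IV collagen, at -0.57 and -0.37 (adjusted p = 0.0409). In the 8 fits that removed the trend and left out a library, Adamts9 was called in 5, Itgav in 4, Lama4, Itga6 and Robo2 in 2 each and Pxdn in 1.

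On the higher side, Foxo1, a forkhead factor regulated by insulin signalling, had a log2 fold change of 0.15 with the trend kept (adjusted p = 0.097 by edgeR) and 0.49 with it removed (adjusted p = 0.0243). Id4, an inhibitor of DNA binding by helix-loop-helix factors, was at 0.35 and, after removal, 0.45 (adjusted p = 0.0487 by edgeR), and was called in 1 of those 8 fits. Mrpl23, a mitochondrial ribosomal protein, was at 11.5 ± 0.773 CPM in homozygotes and 6.18 ± 1.24 CPM in heterozygotes (log2 fold change 0.91 ± 0.13), and 0.66 after removal (adjusted p = 0.053 by edgeR).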
